A study of Mus musculus with 8 samples.

Results

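The 8 genes Gjd2, Cdh1, Cdh2, Ncam1, Cadm1, Epha5, Efna5 and Itgb1 encode proteins by which islet cells are electrically coupled, adhere to each other and bind the matrix around them. They were chosen by symbol as 8 of the 53012 Ensembl genes of the count table, and all 8 passed the filter on low counts that left 15474 genes for testing. Bulk RNA-seq was done on islets of 4 βIgf1r mice and 4 βIgf1rKD mice at 17 months of age, and each mouse gave its own library. Both groups carried a floxed exon of Igf1r on both alleles (Igf1r flox/flox). The βIgf1rKD mice also carried 1 copy of a tamoxifen-inducible Cre (Ins1-CreERT2 +/-) and were given tamoxifen intraperitoneally on 5 days (0.075 mg/g each). The βIgf1r mice lacked Cre (Ins1-CreERT2 -/-) and were given corn oil. Islets were taken 7 days after the last injection. The methods describe the Cre as driven by a rat insulin promoter, so that recombination was aimed at β-cells, while the RNA came from whole islets. Effects of Cre, of tamoxifen and of lower Igf1r cannot be told apart in this design, both sexes were present in each group without a mark per mouse, and the strain was not stated in the sources used here.

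In an islet, β-cells fire and secrete insulin in step because gap junctions of connexin-36, the product of Gjd2, join their cytoplasms. Cadherins hold neighbouring cells together through calcium-dependent binding of like to like and are tied to the actin cytoskeleton by catenins. EphA receptors and their membrane-bound ephrin-A ligands signal in both directions where β-cells touch, and integrins bind the laminins and collagens of the basement membrane that lies along islet capillaries. The question put to the data was whether the RNA of these contact genes differed when Igf1r was targeted in β-cells of old mice.

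Total counts per mouse lay between 21633925 and 42391106, so that sampling noise was small for 7 of the members and large for Epha5 alone, which had 17 to 58 counts. The targeted gene, Igf1r, had 53.6 ± 7.21 CPM (counts scaled to library size with TMM factors, mean ± SD, n = 4) in βIgf1r and 50.7 ± 4.996 CPM in βIgf1rKD islets, and the groups overlapped (log2 fold change -0.08, SE 0.11, exact permutation p = 0.543). These counts cover the whole gene and all islet cells, so loss of the floxed exon in β-cells cannot be read from them. The paper reported lower Igf1r RNA by qPCR and lower IGF1R protein in βIgf1rKD islets. The label of the tissue was checked on marker genes. The 10 β-cell markers together took 16.2% to 22.5% of the RNA in βIgf1r and 10.2% to 22.1% in βIgf1rKD mice, and no marker of the α-, δ- and PP-cell lists was at 0 in every mouse. RNA of other cells was present too. All 12 acinar markers had a log2 fold change above 0, with 1.95% to 14.3% of the RNA in βIgf1r and 4.15% to 16.1% in βIgf1rKD mice, although none had an unadjusted p under 0.05. All 10 tested endothelial markers lay below 0, and 5 of them had an unadjusted p under 0.05. Over all tested genes, 47.7% lay below 0 and 4.12% had such a p. Of the 8 tested Schwann cell markers, all lay below 0 and none had such a p. Above 0 were 6 of 7 duct, 6 of 8 macrophage and leukocyte, and 5 of 9 stellate cell and fibroblast markers. Of the endocrine lists, 4 of 10 β-cell, 3 of 7 α-cell, 1 of 4 δ-cell and 0 of 2 PP-cell markers were above 0. In bulk RNA, fewer cells of a type and less RNA per cell cannot be told apart.

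Upstream sequence is shown for the coupling gene Gjd2 and for the receptor and ligand pair Epha5 and Efna5, whose levels lay far apart. RefSeq windows on GRCm38.p6 were matched for 4 of the 8 members, namely Gjd2, Epha5, Efna5 and Itgb1. No window was matched for Cdh1, Cdh2, Ncam1 and Cadm1. The 250 bases before the annotated start are printed on the gene's own strand, with capitals for matches on either strand to 4 motifs, which were the E-box CAGGTG, the half-site of the cAMP response element TGACG, the GC box GGGCGG and the TATA core TATAA. The windows are chr2:114013620-114013869 (minus strand) for Gjd2, chr17:62881318-62881567 (minus strand) for Efna5 and chr5:84417383-84417632 (minus strand) for Epha5.
Gjd2: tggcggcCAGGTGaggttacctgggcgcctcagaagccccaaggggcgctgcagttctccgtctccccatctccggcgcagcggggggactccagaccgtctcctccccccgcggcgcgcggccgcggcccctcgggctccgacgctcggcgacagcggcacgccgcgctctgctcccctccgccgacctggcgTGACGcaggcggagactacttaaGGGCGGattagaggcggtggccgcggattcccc
Efna5: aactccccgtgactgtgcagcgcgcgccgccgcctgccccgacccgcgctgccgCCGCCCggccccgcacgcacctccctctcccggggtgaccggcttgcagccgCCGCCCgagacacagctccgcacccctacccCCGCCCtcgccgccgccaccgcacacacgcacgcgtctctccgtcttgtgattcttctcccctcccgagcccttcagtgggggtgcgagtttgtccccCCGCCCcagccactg
Epha5: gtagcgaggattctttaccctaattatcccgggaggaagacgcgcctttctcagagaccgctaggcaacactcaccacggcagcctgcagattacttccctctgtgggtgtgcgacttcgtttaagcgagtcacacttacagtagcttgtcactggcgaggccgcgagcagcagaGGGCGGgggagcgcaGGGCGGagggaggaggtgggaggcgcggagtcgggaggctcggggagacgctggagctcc

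The Gjd2 window held 1 E-box 243 bases, 1 cAMP half-site 56 bases and 1 GC box 33 bases before the start. The Efna5 window held 4 GC boxes, and that of Epha5 held 2. Of the 32851 RefSeq windows of this length before annotated starts, 17.2% held the E-box, 17.8% the cAMP half-site, 32.7% the GC box and 22.8% the TATA core. These windows were not matched to the members for G and C. The Itgb1 window, which is not printed, held 1 cAMP half-site 21 bases before the start and 1 GC box farther upstream. None of the 4 member windows held the letters of the TATA core. All were rich in G and C, at 74.0% for Gjd2, 74.8% for Efna5, 68.0% for Itgb1 and 62.4% for Epha5, against a median of 52.4% over all windows. These matches describe the letters of the reference, and binding was not measured.

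The members spanned a wide range of RNA levels. On the scale of CPM per kilobase of the longest coding transcript, Gjd2 had the highest mean level over the 8 mice at 70.2, followed by Cdh1 at 65.9, Itgb1 at 44.2, Cdh2 at 23.2, Ncam1 at 8.38, Cadm1 at 4.60, Efna5 at 3.40 and Epha5 at 0.161. Gjd2 and Cdh1 did not separate, since Gjd2 was above Cdh1 in 5 of 8 mice. Every other neighbouring pair kept its order in all 8 mice. The order of the top 3 rested on the length used. With the median length of the coding transcripts, Cdh1 stood at 76.5, Itgb1 at 74.5 and Gjd2 at 70.2 CPM per kilobase, and the order of the other 5 genes was the same. The ligand Efna5 thus had a far higher level per length than its receptor Epha5 by either length. Among all tested genes, 98.6% had a lower mean log2 CPM than Cdh1 and 13.8% a lower one than Epha5.

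**Figure D1:**
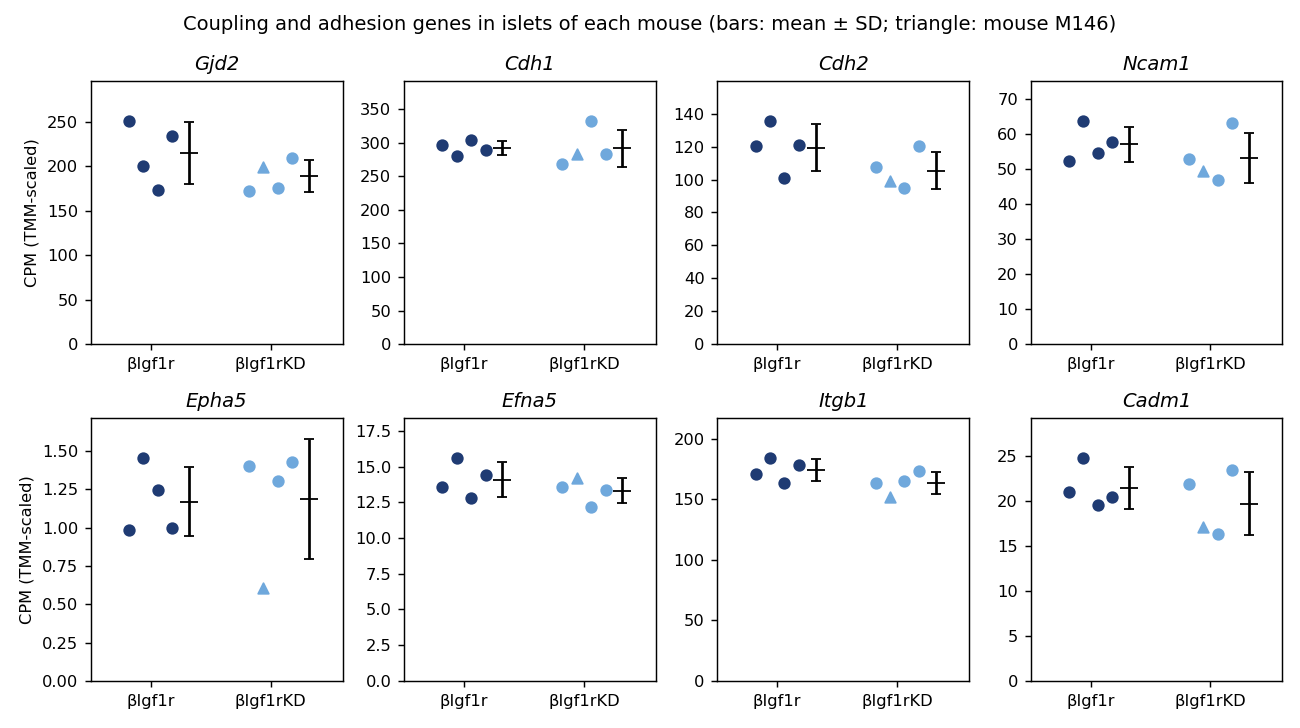
RNA level in CPM of the 8 coupling and adhesion genes in each of the 4 βIgf1r and 4 βIgf1rKD mice, with 1 point per mouse and the mean and SD of each group beside the points. In every panel the points of the groups overlap, and Epha5 has 1 βIgf1rKD mouse at 0.607 CPM below all others.

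None of the 8 members differed between βIgf1rKD and βIgf1r islets beyond the spread between mice. In edgeR's quasi-likelihood test, 0 of 8 had an unadjusted p under 0.05, against 4.12% of all tested genes, and no adjusted p was under 0.987 (Benjamini-Hochberg over all genes). The groups overlapped for all 8, whereas they did not overlap for 2.22% of all genes (1.27% lower in βIgf1rKD islets). At an adjusted p under 0.05 edgeR called 0 of 15474 genes, with 637 at an unadjusted p under 0.05, and DESeq2 called 8 and limma-voom 1, none of them a member. Counts at an unadjusted p depended on single mice, being 383 without βIgf1r mouse M148, 402 without βIgf1r mouse M153, 1114 without βIgf1r mouse M152 and 960 without βIgf1rKD mouse M146. The log2 fold change was below 0 for 7 members and above 0 for Epha5, with a median of -0.10, beside 47.7% of all genes below 0 and a median of 0.01 over all genes. The endothelial marker score, the mean log2 CPM of the tested genes of that list, was 5.06 to 5.37 in βIgf1r and 4.86 to 5.03 in βIgf1rKD mice. With this score in the fit, Cdh2, Ncam1, Cadm1, Efna5 and Itgb1 stood at -0.33, -0.32, -0.41, -0.25 and -0.14, none with an unadjusted p under 0.05. Since the score did not overlap between groups, this fit cannot separate group from score well, and the SE of Gjd2, for example, rose from 0.13 to 0.22.

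Gjd2 is the only gap junction gene among the members. In βIgf1r mice M148, M151, M152 and M153 its level was 251, 201, 173 and 234 CPM, and in βIgf1rKD mice M145, M146, M149 and M150 it was 172, 199, 175 and 209.8 CPM. Mouse M152 of the control group lay between the 2 lowest βIgf1rKD mice, and only 2 control mice were above the highest βIgf1rKD mouse. The means were 214.8 ± 34.6 and 189.2 ± 18.2 CPM (n = 4 each), a log2 fold change of -0.18 (SE 0.13, edgeR p = 0.192, exact permutation p = 0.286). Its 95% interval reached from 28.1% lower to 7.87% higher. Without βIgf1r mouse M152 the log2 fold change was -0.27 with an unadjusted edgeR p of 0.0472, and it was 0.11 in the fit that took the endothelial marker score as a covariate. Gjd2 (ENSMUSG00000068615, chromosome 2, 114009601 to 114013619, minus strand, GRCm38) overlaps exons of the opposite-strand transcript A530058N18Rik, which had 511 to 1128 counts under the more abundant of its 2 identifiers. The library kit keeps strand, but whether the counting used it was not stated, so reads of the pair may be mixed. Gjd2 was lower where the acinar marker score was higher, with a Pearson r of -0.711 and a Spearman rho of -0.738 over 8 mice (exact permutation p = 0.0547 and 0.0458, adjusted p = 0.295 and 0.333 over 80 pairs of marker score and member), and r was -0.564 without the 2 mice farthest from the median score. The part of acinar RNA in the difference between groups was not tested beyond the covariate fit, in which the log2 fold change was -0.07.

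The cadherin pair differed in spread. Cdh1 encodes E-cadherin, the cadherin of epithelia that islet endocrine, acinar and duct cells share. It had 296, 280.2, 304 and 289 CPM in βIgf1r and 268, 284, 332 and 283 CPM in βIgf1rKD mice. The control mice lay close together, and the βIgf1rKD mice reached both below and above them. The means were 292 ± 10.02 and 292 ± 27.7 CPM, and the log2 fold change of -0.0025 (SE 0.098, edgeR p = 0.9804, exact permutation p = 0.971) had a 95% interval from 14.2% lower to 16.2% higher. Cdh2 encodes N-cadherin, which endocrine cells share with neural and some endothelial cells. Its level was 120.1, 135.5, 101 and 121 CPM in βIgf1r and 107.5, 99.4, 94.7 and 120.3 CPM in βIgf1rKD mice, with 2 βIgf1rKD mice below all controls. With means of 119 ± 14.1 and 105 ± 11.2 CPM, the log2 fold change was -0.18 (SE 0.11, edgeR p = 0.137, exact permutation p = 0.171) and the interval ran from 25.6% lower to 4.86% higher. This was the lowest edgeR p of the 8 genes. It was 0.0389 without βIgf1r mouse M152 and 0.0287 with Xist, a gene expressed from the X chromosome in females, as a covariate. Within each library, the log2 ratio of Cdh1 to Cdh2 was 1.30 ± 0.22 in βIgf1r and 1.47 ± 0.26 in βIgf1rKD islets (exact permutation p = 0.429). It was highest in βIgf1rKD mouse M149, at 1.81, and lowest in βIgf1r mouse M151, at 1.05.

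Ncam1 and Cadm1 encode adhesion molecules of the immunoglobulin superfamily, which islet endocrine cells share with nerve and glial cells. Ncam1 is known for carrying polysialic acid, and Cadm1 joins cells by binding its like on the neighbour. The level of Ncam1 was 52.1, 63.6, 54.5 and 57.8 CPM in βIgf1r and 52.8, 49.3, 46.8 and 63.2 CPM in βIgf1rKD mice. Cadm1 had 21.1, 24.8, 19.6 and 20.5 CPM in βIgf1r and 21.9, 17.1, 16.4 and 23.5 CPM in βIgf1rKD mice. For both genes βIgf1rKD mice M146 and M149 lay below all 4 controls, and βIgf1rKD mouse M150 lay near the top of the range. The log2 fold change of Ncam1 was -0.10 (SE 0.11, edgeR p = 0.357, exact permutation p = 0.371), with a 95% interval from 20.97% lower to 9.81% higher. That of Cadm1 was -0.12 (SE 0.14, edgeR p = 0.388, exact permutation p = 0.400), with an interval from 25.7% lower to 13.4% higher. The Schwann cell marker score, the mean log2 CPM of that list, was likewise lowest in βIgf1rKD mice M149 and M146, at 0.56 and 0.76, against 1.17 to 1.54 in the other 6 mice. Scaled to library size alone, the summed Schwann cell markers took 67.3 to 96.6 CPM in βIgf1r and 58.6 to 83.7 CPM in βIgf1rKD mice. TMM factors were not used for these sums, and no tested marker was at 0 in every mouse. Whether Schwann cell RNA had a part in the values of Ncam1 and Cadm1 was not tested.

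Epha5 encodes a receptor tyrosine kinase of the Eph family, and Efna5 encodes ephrin-A5, a ligand it binds. Epha5 was scarce, with 0.985, 1.46, 1.25 and 0.995 CPM in βIgf1r and 1.40, 0.607, 1.31 and 1.43 CPM in βIgf1rKD mice. The low value of βIgf1rKD mouse M146 rested on 17 counts, for which the exact Poisson 95% interval is 9.90 to 27.2 and covers counting error only. The other 3 βIgf1rKD mice lay within the range of the controls. The difference in mean log2 CPM, which the exact permutation test uses, was -0.033, while the fold change from edgeR was above 0. The log2 fold change of 0.02 (SE 0.31, edgeR p = 0.951, exact permutation p = 0.943) had the widest interval of the 8 genes, from 37.1% lower to 63.5% higher. It was 0.24 without mouse M146 and below 0 in limma-voom and with each of the 3 covariates tried, and with library size alone in place of TMM factors. Efna5 varied little, with 13.5, 15.6, 12.8 and 14.4 CPM in βIgf1r and 13.6, 14.2, 12.1 and 13.4 CPM in βIgf1rKD mice. Its log2 fold change was -0.08 (SE 0.096, edgeR p = 0.426, exact permutation p = 0.343), with an interval from 18.4% lower to 9.81% higher. The log2 ratio of Epha5 to Efna5 was -3.53 ± 0.24 in βIgf1r and -3.48 ± 0.61 in βIgf1rKD islets (exact permutation p = 0.886). Mouse M146 again set the spread, at -4.40 against -3.21 to -3.15 in the other βIgf1rKD mice.

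Itgb1 encodes integrin β1, the common partner of many integrin α chains that bind laminin and collagen. It had the most exact estimate of the 8 members, and 7.87% of all genes had a smaller SE. Its level was 170.5, 184.1, 163.2 and 178.3 CPM in βIgf1r and 163, 151.6, 165.4 and 173.1 CPM in βIgf1rKD mice. Mouse M146 was the lowest, 2 βIgf1rKD mice were below all controls, and the upper 2 were within their range. The means of 174 ± 9.11 and 163 ± 8.88 CPM gave a log2 fold change of -0.09 (SE 0.081, edgeR p = 0.285, exact permutation p = 0.171), and the 95% interval ran from 17.3% lower to 6.46% higher. A decrease by more than 17.3% thus lay outside the interval for Itgb1, whereas for Epha5 even a decrease by 37.1% lay inside.

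**Figure D2:**
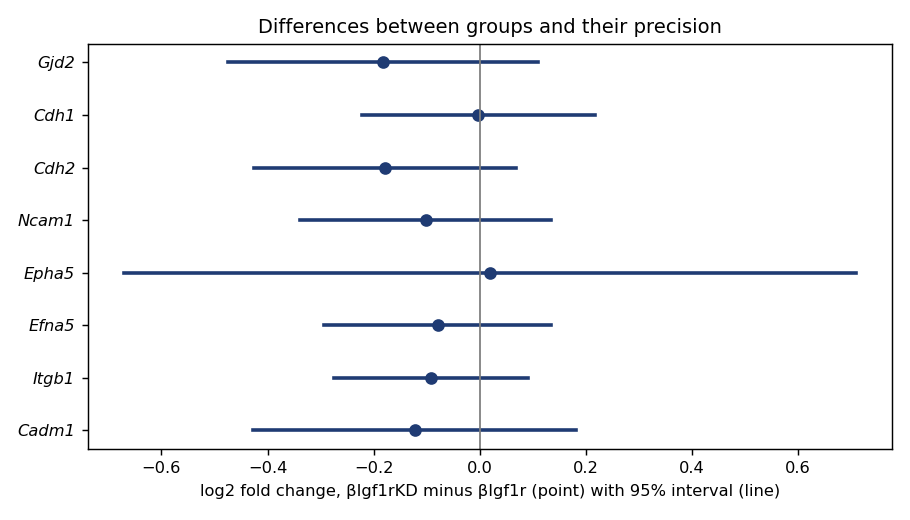
Log2 fold change of βIgf1rKD against βIgf1r islets for the 8 members (point) with its 95% interval (line), from edgeR. All 8 intervals include 0, Itgb1 has the shortest and Epha5, with 17 to 58 counts a mouse, the longest.

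Since other cells contributed different amounts of RNA to each preparation, each member was also set against the mean log2 CPM of 8 endocrine genes (Chga, Chgb, Scg2, Scg3, Scg5, Cpe, Pcsk2 and Pcsk1n), which serve the secretory granules of endocrine cells. On this scale the difference of βIgf1rKD minus βIgf1r was -0.08 for Gjd2, 0.09 for Cdh1, -0.08 for Cdh2, -0.01 for Ncam1, -0.04 for Cadm1, 0.07 for Epha5, 0.02 for Efna5 and 0.01 for Itgb1. The exact permutation p was at least 0.6 for all of them, where the smallest p that 70 assignments of 4 and 4 mice allow is 0.0286. Cdh1 relative to these genes was nearly the same in the 4 control mice, between -2.95 and -2.89, and between -3.14 and -2.49 in the βIgf1rKD mice. Without βIgf1rKD mouse M146 its difference was 0.19 with an exact permutation p of 0.0286, the smallest that 35 assignments allow.

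To see how the members varied together, they were compared over the 8 mice. Log2 CPM of 20 of the 28 pairs of members correlated above 0, and no pair had an adjusted p under 0.05. The closest pairs joined Cdh2, Ncam1, Cadm1 and Itgb1. Ncam1 and Cadm1 had a Pearson r of 0.884 and a Spearman rho of 0.810 (exact permutation p = 0.00536 and 0.0218, adjusted p = 0.0671 and 0.152 over 28 pairs), and r was 0.748 without the 2 mice farthest from the median of Ncam1. Cdh2 and Cadm1 had an r of 0.876 and a rho of 0.833 (exact permutation p = 0.00357 and 0.0154, adjusted p = 0.0671 and 0.144), with r = 0.708 without the 2 farthest mice. Cdh2 and Itgb1 had an r of 0.850 and a rho of 0.833 (exact permutation p = 0.00719 and 0.0154, adjusted p = 0.0671 and 0.144), with r = 0.907 without the 2 farthest mice. After the group means were removed, these 3 values of r were 0.867, 0.871 and 0.786. Cdh1 went the other way against Efna5, with an r of -0.689 and a rho of -0.643 (exact permutation p = 0.0639 and 0.0962, adjusted p = 0.219 and 0.269, r = -0.739 without the 2 farthest mice).

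**Figure D3:**
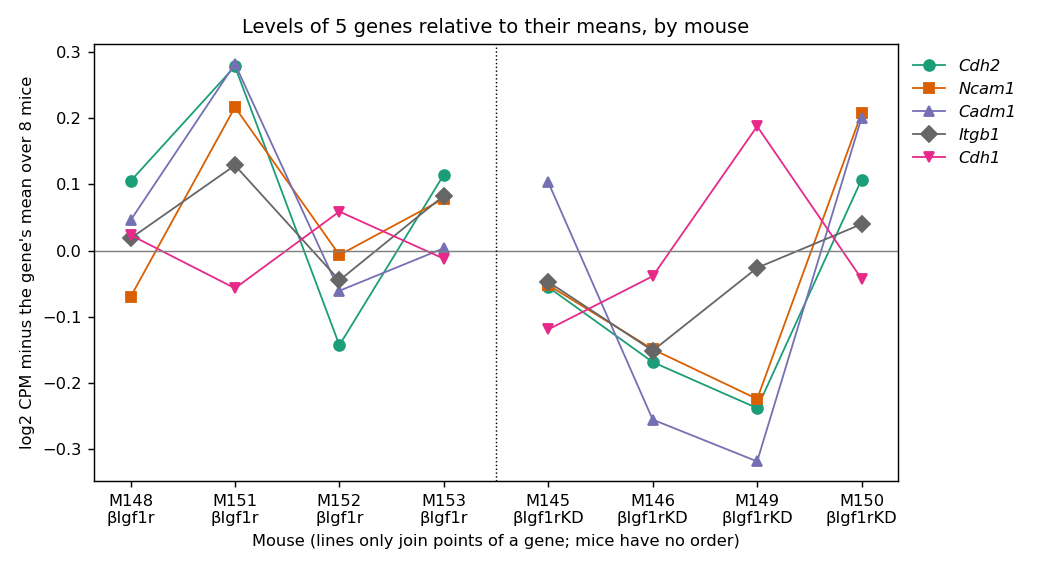
Log2 CPM minus the gene's mean over the 8 mice, by mouse, for Cdh2, Ncam1, Cadm1, Itgb1 and Cdh1. Lines only join the points of a gene within a group, and mice have no order. In βIgf1r mouse M151, Cdh2, Ncam1, Cadm1 and Itgb1 are at their highest and Cdh1 is below its mean. In βIgf1rKD mouse M149, Cdh1 is at its highest and Cdh2, Ncam1 and Cadm1 are at their lowest.

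Cadm1, Ncam1 and Cdh2 were set against the marker scores. The Pearson r of the Schwann cell score was 0.915 with Cadm1, 0.860 with Ncam1 and 0.858 with Cdh2, and the Spearman rho was 0.857, 0.857 and 0.905 (exact permutation p of r = 0.00188, 0.0063 and 0.00134, and of rho = 0.0107, 0.0107 and 0.00456). Adjusted over the 80 pairs of marker score and member, p was 0.0754, 0.123 and 0.0754 for r and 0.205 for each rho. Without mice M146 and M149, the 2 farthest from the median score, r was 0.648 with Cadm1, 0.752 with Ncam1 and 0.816 with Cdh2. The PP-cell score had an r of 0.851 and a rho of 0.881 with Ncam1 (exact permutation p = 0.00823 and 0.00724, adjusted p = 0.123 and 0.205), and r was 0.905 without the 2 farthest mice. With Ncam1 the δ-cell score had an r of 0.827 and the α-cell score an r of 0.795, and with Cadm1 the α-cell score had an r of 0.810 (exact permutation p = 0.00923, 0.0187 and 0.017, adjusted p = 0.123, 0.187 and 0.187). Their Spearman rho was 0.810, 0.643 and 0.786 (exact permutation p = 0.0218, 0.0962 and 0.0279, adjusted p = 0.218, 0.472 and 0.223), and r was 0.588, 0.186 and 0.572 without the 2 farthest mice. Epha5 ran against the β-cell marker score with an r of -0.853 and a rho of -0.810 (exact permutation p = 0.0035 and 0.0218, adjusted p = 0.0933 and 0.218, r = -0.868 without the 2 farthest mice), and Gjd2 had an r of 0.670 with it (exact permutation p = 0.0726, adjusted p = 0.323). No pair with a marker score had an adjusted p under 0.05. Relative to the endocrine genes all 28 pairs of members correlated above 0 and 13 had an adjusted p under 0.05, but every member then shares the subtracted reference.

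Among all tested genes, the nearest patterns over the 8 mice, by Pearson r of log2 CPM, were Atp6v0e2 (0.962) and Kif27 (0.958) for Gjd2, Ptrh2 (0.963) and Plscr3 (0.961) for Cdh1, and Pafah1b1 (0.988) and Prkaa1 (0.978) for Cdh2. For Ncam1 they were Cspp1 (0.971) and Prkca (0.955), for Cadm1 Synm (0.973) and Dlg2 (0.972), and for Itgb1 Ankrd28 (0.974) and Plscr1 (0.973). For Epha5 they were Fhl4 (0.981) and Chrm1 (0.978), both with near 1 CPM, and for Efna5 Slx4ip (0.965) and Cdx4 (0.947). These genes were picked as the highest of 15474, and with 8 mice between 14 genes for Efna5 and 123 for Cdh2 had an r over 0.9, so that the values are descriptions.

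The rest of each family was read from 9 lists with 207 genes, of which 166 were tested. Their log2 fold change was above 0 for 83 and below 0 for 83, with a median of -0.004 beside 0.01 over all genes. The groups did not overlap for 4 of the 166, near the share of 2.22% over all tested genes. At an unadjusted edgeR p under 0.05 there were 13 genes (7.83% of those tested), 5 higher and 8 lower in βIgf1rKD islets, where 2.23% of all genes were higher and 1.89% lower. None had an adjusted p under 0.05, with 0.987 as the lowest, so all 13 are given as values and not as calls. The 13 became 7 without βIgf1r mouse M148. When each mouse was left out in turn, 5 of the 13 (Cdh5, Esam, Lama3, Pecam1 and Tjp3) stayed under 0.05 each time and 8 did not. In every list the gene with the highest mean log2 CPM over the 8 mice, without regard to length, is named as well.

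Connexins and pannexins had 8 tested genes and none at an unadjusted p under 0.05. By mean log2 CPM the highest was Panx2, a pannexin, at 5.38 ± 0.881 CPM in βIgf1r and 5.89 ± 0.897 CPM in βIgf1rKD islets. Gjb1 and Gjb2, the connexins of acinar gap junctions, were picked after their values were seen. Both had a higher mean CPM than Panx2 in βIgf1rKD islets. Gjb2 had 3.43 ± 2.47 and 9.80 ± 7.47 CPM (log2 fold change 1.53, SE 0.73, edgeR adjusted p = 0.987), and Gjb1 4.05 ± 3.33 and 7.16 ± 3.99 CPM (0.83, SE 0.66, edgeR adjusted p = 0.987). Both varied widely between mice, and the acinar markers ran from 1.95% to 16.1% of the RNA over the 8 mice. The part of acinar RNA in these values was not tested.

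Of 18 cadherins and catenins, 10 lay below 0 and 8 above, and 2 had an unadjusted p under 0.05. Ctnnb1, β-catenin, had the highest log2 CPM, with 425 ± 10.5 and 406 ± 11.8 CPM (log2 fold change -0.07, SE 0.09, edgeR p = 0.485, exact permutation p = 0.0571). Cdh5, the cadherin of endothelial cells and a gene of the endothelial marker list, had 20.7 ± 2.20 and 17.02 ± 0.733 CPM without overlap of the groups (-0.28, SE 0.095, edgeR p = 0.0143, exact permutation p = 0.0286), and with the endothelial score as a covariate its log2 fold change was -0.089. Cdh17, liver-intestine cadherin, had 0.646 ± 0.197 and 3.04 ± 2.94 CPM (2.21, SE 0.84, edgeR p = 0.0259, exact permutation p = 0.257), and its βIgf1rKD mice ran from 0.148 to 6.97 CPM on both sides of the controls. The log2 fold change of Cdh5 was -0.26 with the acinar score as a covariate and -0.26 with Xist. That of Cdh17 was 1.74 with the endothelial score and 2.41 with Xist. It was 1.39 without βIgf1rKD mouse M145, 1.67 with the acinar score and 0.94 in limma-voom, each with an unadjusted p over 0.05. The 15 tested Eph receptors and ephrins had 8 above and 7 below 0 and none at such a p, with Efnb1, ephrin-B1, the highest at 18.7 ± 2.42 and 20.3 ± 2.63 CPM.

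Around Itgb1, 33 integrins and adaptors were tested, with 22 above and 11 below 0. Talin-1 (Tln1), which links integrins to actin, was the highest at 93.1 ± 20.6 and 101 ± 13.7 CPM. Itga6, a laminin-binding α chain that pairs with integrin β1, had 34.4 ± 3.16 and 42.5 ± 6.02 CPM (log2 fold change 0.31, SE 0.11, edgeR p = 0.0232, exact permutation p = 0.0571). Itgam, an α chain of macrophages and other leukocytes, had 1.38 ± 0.514 and 3.02 ± 1.58 CPM (1.14, SE 0.44, edgeR p = 0.0287, exact permutation p = 0.143). With library size alone, summed macrophage and leukocyte markers were 114 to 204 CPM in βIgf1r and 101 to 218 CPM in βIgf1rKD mice. With the acinar score as a covariate the log2 fold changes of Itga6 and Itgam were 0.17 and 0.65. Both had an unadjusted p over 0.05 in that fit. The log2 fold changes were 0.20 and 0.81 with the endothelial score, and 0.36 and 1.19 with Xist. Of 19 basement membrane ligands, 13 lay below 0. Col4a1, a collagen IV chain, was the highest at 108 ± 17.7 and 103 ± 17.99 CPM. Lama3, the α3 chain of laminin, had 6.19 ± 1.44 and 3.89 ± 0.523 CPM (-0.66, SE 0.19, edgeR p = 0.00582, exact permutation p = 0.0286), without overlap. Nid2, a nidogen that bridges laminin and collagen IV, had 9.40 ± 1.26 and 6.88 ± 1.15 CPM (-0.45, SE 0.15, edgeR p = 0.0151, exact permutation p = 0.0571), and its log2 fold change was 0.091 with the endothelial score as a covariate.

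Among 24 other immunoglobulin adhesion molecules, 14 lay below 0 and 10 above. Nfasc, neurofascin, was the highest at 98.7 ± 6.21 and 100.3 ± 14.5 CPM. The 3 genes with an unadjusted p under 0.05 were Esam, Pecam1 and Jam2, all known from endothelial junctions. Esam, which is on the endothelial marker list, had 22.5 ± 2.17 and 18.3 ± 0.237 CPM (-0.30, SE 0.087, edgeR p = 0.00633, exact permutation p = 0.0286), Pecam1 41.2 ± 1.64 and 34.9 ± 2.58 CPM (-0.24, SE 0.075, edgeR p = 0.00987, exact permutation p = 0.0286), and Jam2 40.3 ± 9.03 and 29.3 ± 4.67 CPM (-0.46, SE 0.17, edgeR p = 0.0242, exact permutation p = 0.0571). The groups did not overlap for Esam and Pecam1. With library size alone, the summed endothelial markers were 470 to 710 CPM in βIgf1r and 325 to 495 CPM in βIgf1rKD mice. These ranges overlapped, whereas those of the endothelial score, which used TMM factors, did not. With that score as a covariate the log2 fold changes were -0.12 for Esam, -0.15 for Pecam1 and -0.13 for Jam2. A smaller value for Esam was partly built in, since the score includes Esam. None of the 3 had an unadjusted p under 0.05 in that fit. With the acinar score the log2 fold changes of Esam, Pecam1 and Jam2 were -0.26, -0.24 and -0.48. With Xist they were -0.29, -0.23 and -0.41.

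Of 20 tight junction genes, 14 lay above 0. Tjp1, the scaffold ZO-1, had the highest mean log2 CPM, at 103 ± 8.88 and 101 ± 6.89 CPM. Its relative Tjp3 had 14.4 ± 1.56 and 18.7 ± 2.94 CPM (log2 fold change 0.37, SE 0.13, edgeR p = 0.0169, exact permutation p = 0.0857), claudin-7 (Cldn7) 32.8 ± 2.45 and 39.5 ± 5.24 CPM (0.27, SE 0.10, edgeR p = 0.0302, exact permutation p = 0.0857) and claudin-2 (Cldn2) 1.78 ± 0.447 and 1.17 ± 0.284 CPM (-0.61, SE 0.27, edgeR p = 0.0464, exact permutation p = 0.0571). The groups overlapped for all 3, and with library size alone, which moved the median of all genes by -0.20, Tjp3 and Cldn7 stood at 0.20 and 0.084. Tjp3, Cldn7 and Cldn2 stood at 0.36, 0.25 and -0.48 with the acinar score as a covariate. They stood at 0.48, 0.49 and -0.94 with the endothelial score, and at 0.45, 0.36 and -0.76 with Xist. With the acinar score as a covariate, 1 gene of this list had an unadjusted p under 0.05, where the main fit had 3. The 20 synaptic adhesion genes had 14 below 0 and none at such a p, with the receptor phosphatase Ptprf the highest at 299.5 ± 40.0 and 311 ± 22.3 CPM. The last list held 9 enzymes that add polysialic acid or cut adhesion molecules at the membrane, with 5 below 0. Ncstn, a subunit of γ-secretase, was the highest at 94.9 ± 3.71 and 94.1 ± 3.57 CPM. St8sia4, which adds polysialic acid to Ncam1, had 3.88 ± 1.61 and 2.43 ± 0.134 CPM (-0.67, SE 0.28, edgeR p = 0.0371, exact permutation p = 0.0857), with the 4 βIgf1rKD mice close together and the controls spread from 2.35 to 6.002 CPM. Without βIgf1r mouse M151, the highest control, its log2 fold change was -0.38 with an unadjusted p over 0.05. That p was also over 0.05 in limma-voom. The log2 fold change of St8sia4 was -0.54 with the acinar score, -1.24 with the endothelial score and -0.79 with Xist.

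**Figure D4:**
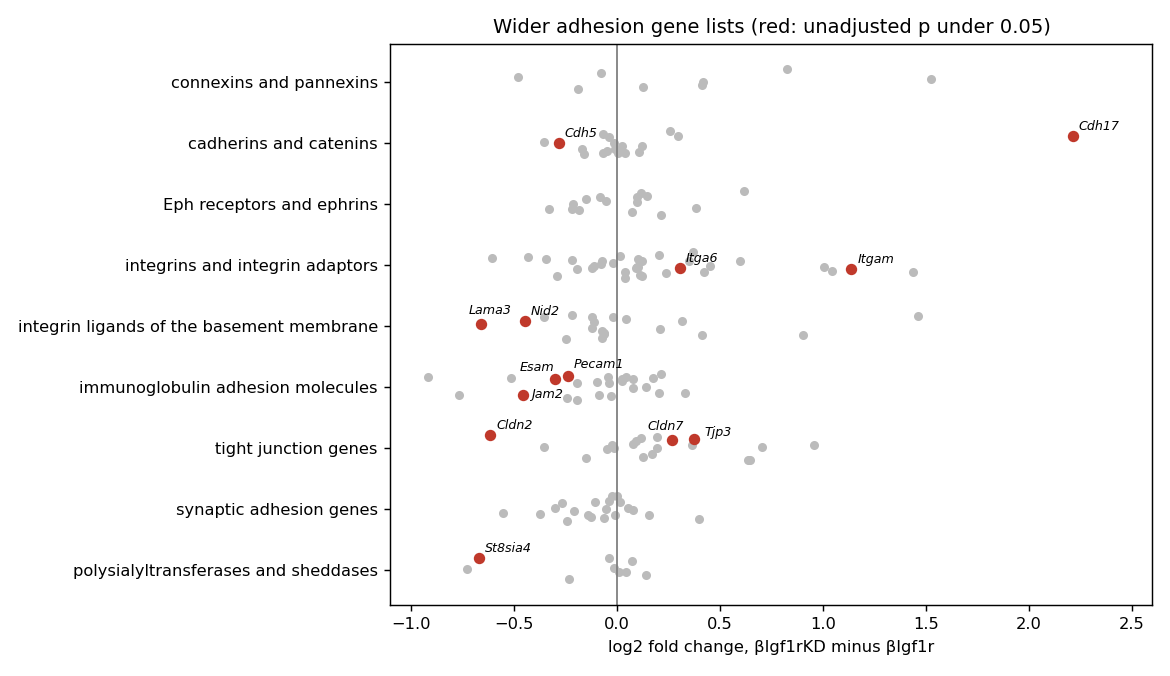
Log2 fold change of βIgf1rKD against βIgf1r islets for 166 tested genes of 9 adhesion lists, 1 point per gene, with the 13 genes at an unadjusted edgeR p under 0.05 in red and named. The points lie on both sides of 0, with 83 above and 83 below.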

How the data were processed

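RNA of islets from 4 βIgf1r and 4 βIgf1rKD mice was sequenced from stranded mRNA libraries. The authors deposited an unscaled estimated count per Ensembl gene and mouse. The submitters' processing notes list fastp, kallisto and GRCm38, without versions or roles, and the strand setting is not given in the sources used here. Columns were matched to mice by mouse number, and 0 columns were left unmatched. Estimated counts were rounded, and edgeR 4.0.16 (R 4.3.3) was run with its default filter (minimum count 10 in 4 mice, minimum total 15), TMM factors (0.803 to 1.23), a quasi-likelihood fit on 15474 genes without covariates and Benjamini-Hochberg adjustment. The authors' statistics section gives p < 0.05 without naming the RNA-seq test or an adjustment for it, so counts at an unadjusted and an adjusted p are given. Log2 CPM used a prior count of 2. Marker sums and their shares of the RNA used library size without TMM factors. Single values were compared by exact two-sided permutation tests over mice (scipy 1.17.1). Mice of a group differed by a chi-square per degree of freedom of at least 79.1, so no library was a copy.

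Symbols were matched for 51906 of 53012 identifiers, and positions and transcript lengths are from GENCODE M21 on GRCm38. Members, lists and tests were chosen with earlier results of these data known. Named were the members, Igf1r, each list's gene with the highest mean log2 CPM and its genes at an unadjusted p under 0.05, and for each member the 2 genes with the highest r. Gjb1 and Gjb2 were added after their values were seen. Levels per length were given as TMM-scaled CPM per kilobase in place of a TPM-like value. The alternatives were DESeq2 1.42.0, limma-voom (limma 3.58.1), RLE size factors, 2 other filters, 3 covariates (Xist, acinar and endothelial marker scores), another prior count for the ratios, another endocrine reference, each mouse left out in turn, and library size alone, which was added after the data were seen. On simulated counts with 196 genes changed 2-fold among 15292, the edgeR calls (adjusted p, threshold 0.05) held 65.8% of them and 6 false ones. They held 94.3% of 193 genes changed 4-fold among 15239, and 0 calls were made among 15297 with none changed.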

Additional observations from a re-analysis of the deposited data

Results flagged for a closer look

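In 8 of 80 sets of 4 mice, 1 mouse stood farther from the others than Dixon's 95% limit allows, where chance gives about 4. βIgf1rKD mouse M146 stood apart in 5 of the 8. The sets share genes and mice and are not independent, and every set of M146 with Epha5 uses the same 17 counts. Its log2 CPM of Epha5 was -0.56 against 0.46 to 0.59 in the other 3 βIgf1rKD mice. Its log2 ratio of Epha5 to Efna5 was -4.40 against -3.21 to -3.15. Relative to the endocrine genes, its Epha5 stood at -11.9 against -10.4 in the others, and its Itgb1 at -4.04 against -3.58 to -3.50. Its log2 CPM of Cdh5 was 4.00 against 4.12 to 4.13. The remaining 3 were in the tight junction list. Log2 CPM of Tjp1 was 6.86 in βIgf1r mouse M151 against 6.61 to 6.63, and 6.80 in βIgf1rKD mouse M150 against 6.59 to 6.62. Log2 CPM of Tjp3 was 4.07 in βIgf1r mouse M152 against 3.74 to 3.80.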

How the results depend on the processing

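Over 9 alternatives, 64 of 72 member fold changes kept their direction, and 54 of 64 did when 1 mouse was left out. No member reached an adjusted p under 0.05 in any fit, the lowest being 0.657. The log2 fold change turned direction for Gjd2 to 0.11 and Cdh1 to 0.15 with the endothelial score, and for Cdh1 to 0.060 with Xist. That of Epha5 became -0.020 with Xist, -0.21 with the acinar score, -0.42 with the endothelial score, -0.23 with library size alone and -0.027 in limma-voom. That of Nid2 became 0.091 with the endothelial score, while it was -0.44 with the acinar score and -0.32 with Xist. Lama3 kept its direction, at -0.77 with the acinar score, -0.65 with Xist and -0.74 with the endothelial score. Its unadjusted p was over 0.05 in the fit with the endothelial score. With β-cell genes as the reference, the relative differences of Cdh1, Epha5, Efna5 and Itgb1 became -0.018, -0.044, -0.090 and -0.10. The cause of these turns was not tested. Of the 13 list genes at an unadjusted p under 0.05, 6 kept that p with the acinar score, 2 with the endothelial score and 0 in every alternative. The endothelial score did not overlap between groups, so the fit with it cannot separate group from score well. That score also includes Cdh5 and Esam, which are among the 13.

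Members at an unadjusted p under 0.05 numbered 1 with Xist (Cdh2) and 0 to 2 when 1 mouse was left out. With Xist the median log2 fold change of the members was -0.17, against -0.10 in the main fit. Cadm1 then stood at -0.25, Ncam1 at -0.19 and Efna5 at -0.15, each with an unadjusted p over 0.05, while Cdh1 moved up to 0.060. All genes at such a p numbered 1143 with Xist, 375 with the acinar score, 1098 without a filter, where more genes were tested, and 383 to 1114 without 1 mouse. At an adjusted p under 0.05 there were 8 in DESeq2, 1 with library size alone, 1 in limma-voom and 0 without any 1 mouse. Genes of the adhesion lists numbered 32 with Xist, 7 with the acinar score, 23 with library size alone and 7 to 19 without 1 mouse. Library size alone moved the median of all genes by -0.20 and the share of higher among genes at an unadjusted p under 0.05 from 54.2% to 32.6%. That share was 30.8% with the endothelial score and 43.4% in limma-voom. All 8 members were below 0 with library size alone. Relative to the median of all genes, Gjd2 stood at -0.19 by both scalings. Epha5 went from 0.012 in the main fit to -0.039 with library size alone on that scale. Pairs of members at an adjusted p under 0.05 numbered 13 relative to the endocrine genes.

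Leaving out 1 mouse gave log2 fold changes from -0.27 to -0.10 for Gjd2, -0.070 to 0.036 for Cdh1, -0.25 to -0.11 for Cdh2, -0.20 to -0.046 for Ncam1, -0.22 to -0.044 for Cadm1, -0.092 to 0.24 for Epha5, -0.12 to -0.027 for Efna5 and -0.12 to -0.059 for Itgb1. The log2 ratio differences ran from 0.057 to 0.27 for Cdh1 to Cdh2 and from -0.064 to 0.35 for Epha5 to Efna5. Relative to the endocrine genes they ran from -0.20 to -0.0093 for Gjd2, -0.024 to 0.19 for Cdh1, -0.18 to 0.037 for Cdh2, -0.10 to 0.11 for Ncam1, -0.13 to 0.11 for Cadm1, -0.065 to 0.43 for Epha5, -0.047 to 0.10 for Efna5 and -0.053 to 0.13 for Itgb1. No paired analysis was possible because the groups share no mouse numbers. Depth limits Epha5, with 17 to 58 counts.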
